A study of Homo sapiens with 12 samples.

Results

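The genes described here encode collagens, laminins, fibronectin, netrin 4, integrins, matrix metalloproteinases (MMPs), ADAMTS proteins and serpins. They were taken as the protein-coding genes in either deposited table whose symbol starts with COL and a digit, LAMA, LAMB, LAMC, ITGA, ITGB, ADAMTS, MMP and a digit, TIMP or SERPIN, or is FN1 or NTN4. The rule found 35 of the 2983 listed genes and loci, 25 in the table for RSL3 and 17 in the table for ATOH8, with 7 in both. RefSeq holds 175 such genes, so most were in neither table, and none of the 4 TIMP genes was. Both tables hold only genes that the authors called changed. Being listed therefore already rests on these values, and a gene outside the tables could not be assessed.

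DU145, an epithelial line from a human prostate cancer, gave 12 RNA-seq libraries, 3 for each of 4 groups. The DMSO group was unmodified (labelled WT) DU145 with the solvent, and the RSL3 group was the same line given RSL3 for 24 h. RSL3 inhibits GPX4, the enzyme that reduces lipid peroxides, and so triggers ferroptosis. The oeCTRL group carried an overexpression control and the oeATOH8 group overexpressed ATOH8, a transcription factor of the basic helix-loop-helix family. Its own reads numbered 13, 10 and 4 in oeCTRL, against 76508, 72569 and 76043 in oeATOH8, which matches the labels. The sources used here give no dose, no vector or promoter, and do not say whether the cells were a clone or a pool. They also do not say whether replicates were separate cultures, so p-values measure the spread between these samples, which may be technical.

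Epithelial cells rest on a basement membrane, a sheet of laminin and type IV collagen networks joined by linker proteins. Below it lie fibrillar collagens and fibronectin. Integrins, each a pair of one alpha and one beta chain, bind these proteins and tie them to the cytoskeleton. MMPs and ADAMTS proteases cut the matrix, and many serpins block serine proteases in and around it. Epithelial tumour cells make much of their own basement membrane and proteases.

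Because ATOH8 is of a factor family that binds E-boxes (CANNTG), a few stretches of promoter are shown. They were picked singly from genes with large changes, not by rank of change. They are the 250 bases before the start site in RefSeq (GRCh38.p14), 5′ to 3′ on the strand of the gene, with each E-box in capitals. Where RefSeq gives several starts, the one farthest upstream was taken. LAMB3 and ADAMTS6 were higher in oeATOH8, COL4A2 was higher with RSL3, and NTN4 was lower with RSL3.
LAMB3, chr1:209652426-209652675, minus strand: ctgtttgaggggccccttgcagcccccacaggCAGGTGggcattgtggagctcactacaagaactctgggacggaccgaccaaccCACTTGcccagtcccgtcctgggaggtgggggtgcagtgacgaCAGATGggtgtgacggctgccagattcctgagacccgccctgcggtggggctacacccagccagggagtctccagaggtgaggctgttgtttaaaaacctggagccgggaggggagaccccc
ADAMTS6, chr5:65481921-65482170, minus strand: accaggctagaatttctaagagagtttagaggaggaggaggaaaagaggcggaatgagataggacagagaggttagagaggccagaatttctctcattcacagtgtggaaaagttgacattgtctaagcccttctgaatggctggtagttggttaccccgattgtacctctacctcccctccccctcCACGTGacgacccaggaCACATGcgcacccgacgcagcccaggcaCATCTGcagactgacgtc
COL4A2, chr13:110307034-110307283, plus strand: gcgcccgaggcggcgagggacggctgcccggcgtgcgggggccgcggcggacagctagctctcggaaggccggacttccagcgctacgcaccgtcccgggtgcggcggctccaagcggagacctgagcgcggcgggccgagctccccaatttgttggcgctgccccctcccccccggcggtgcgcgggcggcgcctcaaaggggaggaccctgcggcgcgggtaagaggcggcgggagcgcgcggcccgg
NTN4, chr12:95791156-95791405, minus strand: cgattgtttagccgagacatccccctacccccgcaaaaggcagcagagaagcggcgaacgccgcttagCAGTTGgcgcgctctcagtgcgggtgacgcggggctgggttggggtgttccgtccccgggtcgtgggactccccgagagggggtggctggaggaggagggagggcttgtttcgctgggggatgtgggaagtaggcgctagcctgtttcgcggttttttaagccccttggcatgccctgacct
The LAMB3 and ADAMTS6 stretches held 3 E-boxes each, NTN4 held 1 and COL4A2 held 0. Among all such stretches of protein-coding genes 58.1% held at least 1, and the share with 3 or more is not given. None of the 4 held TGANTCA, the core of AP-1 sites (5.36% of all stretches), or TGACNNNGC, the core of antioxidant response elements (11.2%), read on both strands. Over the full RefSeq windows, which run to 50 bases past the start, 25 of the 35 matrix genes had 31 windows. Of these, 61.3% held an E-box, against 65.1% of 22198 windows of protein-coding genes. E-boxes averaged 0.935 per window in the matrix genes and 1.16 in the protein-coding genes. The LAMB3 and NTN4 matches depend on the start chosen. The other LAMB3 windows held 1 E-box each, and that at chr1:209651325-209651624 also held 1 TGANTCA. The other NTN4 window held 0 E-boxes. No gene that fell in oeATOH8 is shown, though COL4A5 (14.6-fold) and COL8A2 (5.24-fold) changed more than LAMB3 (2.89-fold) and ADAMTS6 (3.27-fold). The full windows of COL4A5 and COL8A2 held 1 E-box each. These matches describe letters only, and E-boxes were not tested against the direction of change.

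RSL3 values below are normalised read counts as deposited, and ATOH8 values are raw read counts, with folds taken from group means after scaling. Summed over listed genes, libraries held from 2523743 to 3096832 recovered reads in the RSL3 table and from 1508188 to 2226518 reads in the ATOH8 table. These sums are not library depths, which are unknown. In the RSL3 table replicates 2 and 3 were almost as alike as repeats of one library. Their chi-square over its degrees of freedom was 1.64 (DMSO) and 1.80 (RSL3), against 59.1 to 101 for pairs that include replicate 1. With replicates 2 and 3 averaged and counted as 1 sample, limma called 0 of the 23 matrix genes tested (18 with all libraries). The share of all genes tested is not given for that fit. Bulk RNA cannot tell fewer cells that make a transcript from less of it per cell.

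With RSL3, most listed matrix genes were lower. Of the 25, 8 were higher and 17 lower, while over the whole table of 1810 genes 52.9% were higher and 47.1% lower. The median log2 ratio was -0.85 over the matrix genes and 0.50 over all listed genes. After a filter on low values, 23 were tested with limma, and 18 passed (adjusted p under 0.05), with 5 of these higher and 13 lower. Among all 1720 genes tested 81.7% passed (43.4% higher, 38.4% lower), so the number passing is near the background of a table of called genes. The limma calls split into 1 higher and 11 lower with libraries scaled to their listed totals, and into 2 higher and 14 lower with TMM scaling. These scalings were computed over the listed genes alone, all called changed by the authors, so neither had known unchanged genes to rest on. Both scalings moved all log2 ratios, those of the whole table included, by -0.47 and -0.29, towards lower. The split over all genes tested is not given for them, so these splits have no background. Total scaling ended the calls of COL4A2 (adjusted p = 0.0578), FN1 (0.0609), LAMC1 (0.0672), SERPINB1 (0.0502), MMP24, SERPINH1 and ADAMTSL3, and TMM those of the last 3. All 25 kept their direction in replicate 1 and in replicates 2 and 3, as did 99.6% of all listed genes. The groups did not overlap for 20 of the 25, against 86.4% of listed genes. At least 2.5-fold apart were 10 of the 25, against 28.3% of listed genes. When all annotated genes were counted as tests, limma passed 0 matrix genes and 0.116% of the genes tested, while 18 matrix genes had an unadjusted p under 0.05. The 18 calls were 0 without DMSO replicate 2 or 3, 5 without RSL3 replicate 2 and 7 without RSL3 replicate 3. The share of all genes tested is not given for these fits.

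**Figure D1:**
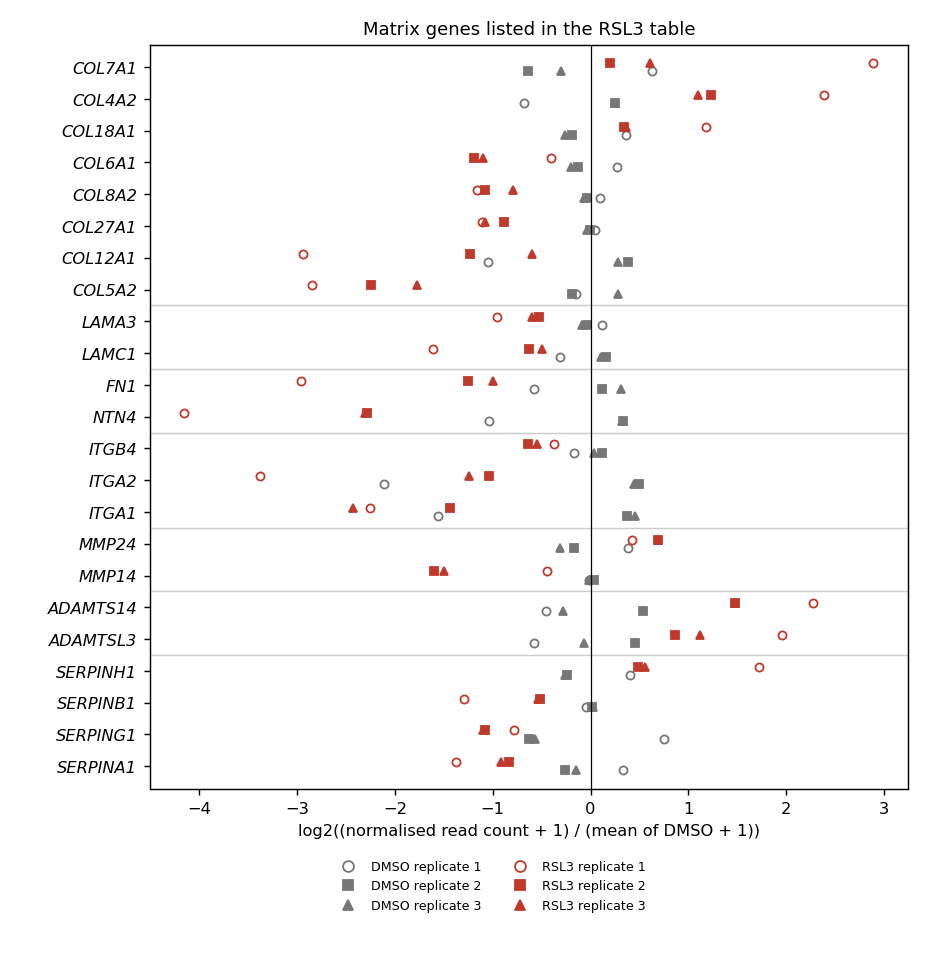
Matrix genes in the RSL3 table (23 plotted) by library, as log2 of the normalised read count plus 1 over the DMSO mean plus 1 (x axis), grouped by family with lines between families. Grey marks are DMSO and red marks RSL3, with replicate 1 open, and the red marks lie left of 0 in all 3 libraries for the 16 lower genes plotted.

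Among genes at a mean of at least 50, the largest fall was in NTN4 (chromosome 12, 95657807 to 95791155, GRCh38), a netrin that binds laminin in basement membranes. NTN4 read 297, 770 and 765 in DMSO and 33.3, 125 and 123 in RSL3. The highest RSL3 library stayed under the lowest DMSO library. NTN4 was 6.52-fold lower, at -2.79 (SE 0.58) on the log2 scale in limma (adjusted p = 0.0182). FN1 (chromosome 2, 215360862 to 215436167), the fibronectin that integrins bind through its RGD sequence, read 110, 179 and 204 in DMSO and 20.3, 68.5 and 81.6 in RSL3. It was 2.89-fold lower (limma adjusted p = 0.0369), without overlap. In both genes replicate 1 was the lowest library of its group.

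The laminin chains LAMA3 and LAMC1 were both lower and both passed. Of all listed genes 47.1% were lower, and 81.7% of genes tested passed. LAMA3, the alpha chain of the laminin that anchors epithelia, read 829, 748 and 719 in DMSO against 392, 529 and 504 in RSL3, 1.61-fold lower (limma adjusted p = 0.0301). LAMC1, the gamma chain of most other laminins, read 2156, 2985 and 2884 against 873, 1728 and 1901, 1.78-fold lower (adjusted p = 0.0411). The groups overlapped for neither gene, and did not overlap for 86.4% of all listed genes. LAMB3 was not in the RSL3 table.

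Collagens went both ways, with 3 of 8 higher and 5 lower, of which 1 and 4 passed. COL4A2 (chromosome 13, 110307284 to 110513209), a chain of the type IV network of basement membranes, read 470, 902 and 898 in DMSO and 3969, 1783 and 1621 in RSL3. It was 3.25-fold higher, at 1.64 (SE 0.40) on the log2 scale in limma (adjusted p = 0.0245). Replicate 1 was the lowest DMSO library and the highest RSL3 library, so its own log2 ratio was 3.07 against 0.92 in replicates 2 and 3. COL18A1, a basement membrane collagen whose end fragment is endostatin and whose exonic bases overlap by 16.4% with SLC19A1 on the other strand, read 4908, 3334 and 3189 against 8626, 4842 and 4910. It was 1.61-fold higher but missed the test (adjusted p = 0.0578), and DMSO replicate 1 lay within the RSL3 range. COL7A1, the collagen of anchoring fibrils below skin, read 14.3, 5.35 and 6.98 against 72.4, 10.3 and 14.1. Its 3.64-fold difference missed the test (adjusted p = 0.110) and was 1.38-fold without RSL3 replicate 1.

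Among the lower collagens, COL5A2 (chromosome 2, 189031898 to 189225301), a chain of the type V collagen that starts fibrils, read 71.4, 69.5 and 96.9 in DMSO and 10.1, 15.9 and 22.5 in RSL3. It was 4.89-fold lower (limma adjusted p = 0.0129), without overlap. COL6A1, of the beaded filaments around cells, read 3844, 2916 and 2776 against 2398, 1393 and 1485, 1.81-fold lower (adjusted p = 0.0326). COL8A2, a short-chain network collagen, read 94.5, 86.3 and 84.7 against 39.1, 41.3 and 50.7, 2.03-fold lower (adjusted p = 0.0257). COL27A1, a fibrillar collagen, read 84.6, 81.7 and 80.3 against 37.6, 44.1 and 38.5, 2.05-fold lower (adjusted p = 0.0237). In these last 2 genes replicate 1 lay close to the other replicates in both groups. COL12A1, which coats fibrils, read 98.9, 270 and 250 against 26.1, 87.2 and 136. It was 2.48-fold lower and missed the test (adjusted p = 0.0577), with DMSO replicate 1 inside the RSL3 range.

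All 3 integrin chains in the table were lower, as were 47.1% of all listed genes. Of the 2 tested 1 passed, against 81.7% of all genes tested. ITGB4, the beta chain of the laminin receptor in hemidesmosomes, read 1363, 1668 and 1574 in DMSO and 1184, 985 and 1052 in RSL3, 1.43-fold lower (limma adjusted p = 0.0397). ITGA2, a collagen-binding alpha chain, read 33.0, 205 and 198 against 13.0, 70.4 and 61.0. Within each replicate RSL3 was lower, but DMSO replicate 1 lay under both other RSL3 libraries, and the 3.02-fold difference missed the test (adjusted p = 0.119). ITGA1, another collagen-binding alpha chain, read 7.69, 32.1 and 34.0 against 4.34, 8.44 and 3.75 and did not pass the filter.

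Among the proteases, MMP14 (chromosome 14, 22836585 to 22847758), a membrane-anchored collagenase that activates pro-MMP2, was lower and MMP24, another membrane-type MMP, was higher. MMP14 read 2998, 3099 and 2989 in DMSO and 2218, 994 and 1071 in RSL3, 2.12-fold lower (limma adjusted p = 0.0266). Per kilobase of exon it was the most abundant of the 25 in DMSO (679 normalised reads per kb, ahead of COL6A1 at 595 and MMP24 at 538). MMP24 read 3098, 2107 and 1914 in DMSO and 3175, 3839 and 3829 in RSL3, 1.52-fold higher (adjusted p = 0.0414). Replicate 1 of the 2 groups differed by a log2 ratio of only 0.035 in MMP24, against 0.93 in replicates 2 and 3, and the call ended with TMM or total scaling. MMP24 shares 18.1% of its exonic bases with MMP24OS on the other strand, and without knowing whether strand was used their reads cannot be told apart. ADAMTS14, a procollagen-processing protease, and ADAMTSL3, a related protein without protease activity, were at low levels. ADAMTS14 read 2.20, 5.35 and 2.62 against 20.3, 11.3 and 11.3 (adjusted p = 0.0282). ADAMTSL3 read 7.69, 16.8 and 11.3 against 49.2, 22.5 and 27.2 (adjusted p = 0.0374), a call that ended with TMM (0.0595) or total scaling (0.115).

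Of 4 serpins tested, 1 was higher and passed, and 3 were lower, of which 2 passed. Among all genes tested for RSL3, 81.7% passed. SERPINH1 (chromosome 11, 75562253 to 75572783) encodes HSP47, the chaperone that folds collagen in the endoplasmic reticulum. It read 3003, 1913 and 1890 in DMSO and 7477, 3177 and 3335 in RSL3, 2.06-fold higher (limma adjusted p = 0.0453). The lowest RSL3 library was just above DMSO replicate 1, and the call ended with TMM or total scaling and without any one library other than DMSO replicate 1. SERPINA1, which inhibits neutrophil elastase, read 2016, 1337 and 1444 against 614, 894 and 847, 2.04-fold lower (adjusted p = 0.0218). SERPINB1, an intracellular inhibitor of the same class of proteases, read 576, 598 and 605 against 242, 416 and 408, 1.67-fold lower (adjusted p = 0.0371). SERPING1, the C1 inhibitor of complement, read 323, 124 and 129 against 111, 90.0 and 89.2. It missed the test (adjusted p = 0.0679) and was 1.98-fold lower, or 1.31-fold without DMSO replicate 1.

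With the replicate number as a block, limma called all 23 tested matrix genes (7 higher and 16 lower), and 99.3% of all genes tested, so this count too is that of the table. The 5 gained were COL12A1 (adjusted p = 0.0041), COL18A1 (0.0029), COL7A1 (0.023), ITGA2 (0.0028) and SERPING1 (0.0229). The block counts the nearly identical replicates 2 and 3 as separate pairs. With these averaged as 1 sample and no block, limma gave adjusted p-values of 0.164 to 0.19 for the 5 genes, and 0 of 23 passed under the block when all annotated genes were counted.

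In the matrix genes, replicate 1 departed from replicates 2 and 3 along GC content. Across the 25 genes, the log2 ratio of replicate 1 over the other replicates had a Spearman rho with transcript GC content of 0.55 in DMSO and 0.66 in RSL3 (Pearson r 0.60 and 0.63). The points are genes of the same libraries and no test applies. This correlation is not given over all listed genes, so it is not shown to be particular to matrix genes. The 8 higher genes had a median GC content of 61.1% and the 17 lower genes one of 50.5%. For listed genes at a mean of at least 50 these medians were 58.9% (731 higher) and 49.1% (527 lower). The RSL3 log2 ratio of replicate 1 less that of replicates 2 and 3 had a rho of 0.235 with GC content (r 0.176). The part of GC content in the RSL3 differences was not tested further.

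**Figure D2:**
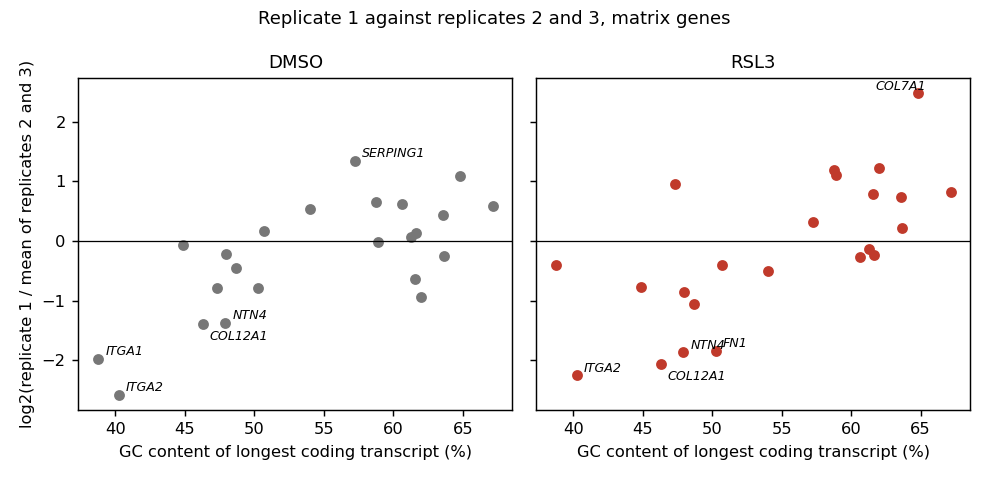
For 23 of the matrix genes in the RSL3 table, the log2 ratio of replicate 1 over the mean of replicates 2 and 3 (y axis, 1 added to each value) against the GC content of the longest coding transcript in percent (x axis), in DMSO (left) and RSL3 (right). ITGA2, COL12A1 and NTN4, of low GC content, lie under 0 in both groups, while ADAMTSL3 lies under 0 in DMSO and above it in RSL3.

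Overexpression of ATOH8 went with a rise of LAMB3, ITGB3, ADAMTS6 and the 2 fibrillar collagen genes COL1A2 and COL3A1, and with a fall of the other 12 matrix genes of that table. In edgeR's quasi-likelihood test 17 of 17 passed (adjusted p under 0.05), with 5 of these higher and 12 lower, and so did 100% of the 1424 listed genes. Of all listed genes 41.4% were higher and 58.6% lower. The median log2 ratio was -1.21 over the matrix genes and -1.10 over all listed genes. Counting all annotated genes and assembled loci as tests, 15 of 17 passed in edgeR and 82.0% of listed genes did, with MMP11 (adjusted p = 0.239) among those that missed. With DESeq2 size factors over the listed genes, which moved all log2 ratios up by 0.91, edgeR called 5 higher and 5 lower. COL27A1, COL7A1, FN1, MMP11, SERPINB5 and SERPING1 were among those no longer called. The split over all listed genes with these factors is not given. Groups did not overlap for 16 of 17, against 99.6% of listed genes, and 10 of 17 were at least 2.5-fold apart, against 51.3%. Replicate 1 had the direction of replicates 2 and 3 in all 17 and in 99.9% of listed genes.

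**Figure D3:**
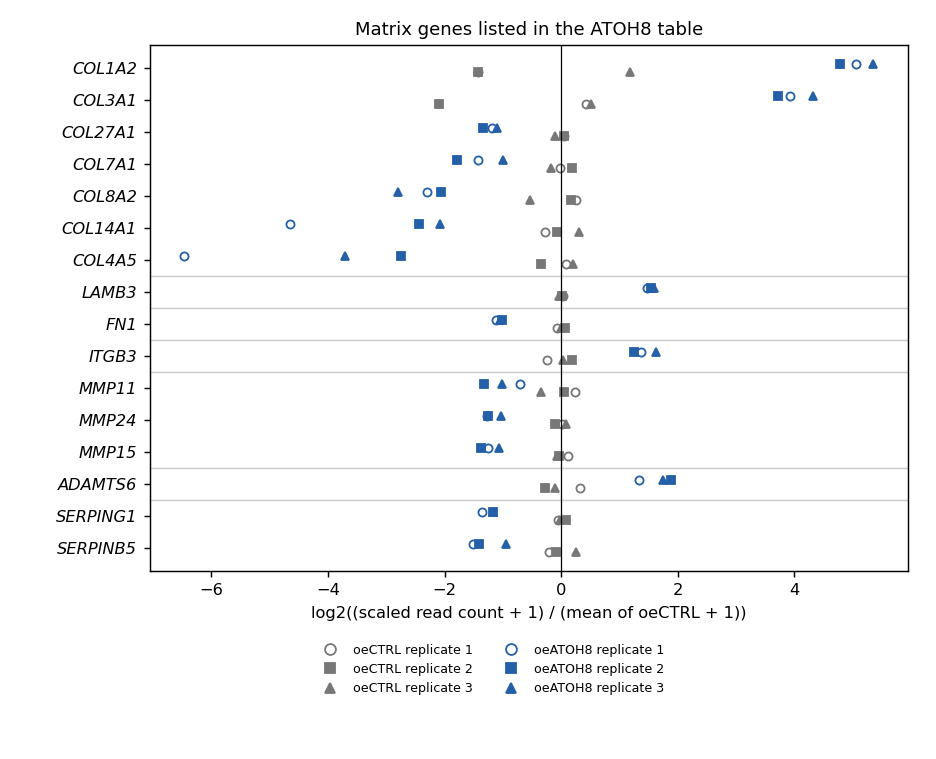
Matrix genes in the ATOH8 table (16 plotted) by library, as log2 of the scaled read count plus 1 over the oeCTRL mean plus 1 (x axis), grouped by family. Grey marks are oeCTRL and blue marks oeATOH8, and the blue marks lie right of 0 for COL1A2, COL3A1, LAMB3, ITGB3 and ADAMTS6.

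LAMB3 (chromosome 1, 209614870 to 209652466), the beta chain of the anchoring laminin of epithelia, was by far the most abundant matrix gene of the table. Its reads were 26362, 24199 and 23482 in oeCTRL against 71046, 70488 and 77216 in oeATOH8. Replicates lay close together and the groups far apart. LAMB3 rose 2.89-fold, at 1.53 (SE 0.03) on the log2 scale in edgeR (adjusted p = 3.36e-11). In oeCTRL it stood at 5258 scaled reads per kb of exon, ahead of MMP15 at 458 and MMP24 at 228. LAMA3, whose product joins it in that laminin, was not in this table.

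ITGB3 (chromosome 17, 47253846 to 47311816), the beta chain of the vitronectin receptor, had 127, 162 and 145 reads in oeCTRL, against 392, 342 and 470 in oeATOH8. It rose 2.70-fold (edgeR adjusted p = 1.30e-05). Over its exons, 51.6% of bases are shared with a readthrough gene model on the same strand, so its count depends on how such reads were assigned. ADAMTS6, a secreted metalloprotease, had 36, 22 and 25 reads against 74, 103 and 98, and rose 3.27-fold (adjusted p = 0.000269).

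COL1A2 (chromosome 7, 94394561 to 94431232) and COL3A1 (chromosome 2, 188974320 to 189012746) encode chains of the fibrillar type I and type III collagens that fibroblasts make in quantity. COL1A2 had 0, 0 and 5 reads in oeCTRL, against 92, 72 and 114 in oeATOH8, a 53.3-fold rise (edgeR adjusted p = 8.72e-06). Without oeCTRL replicate 3 it was at least 60.8-fold higher, taking 3 counts over the group as the floor. COL3A1 had 5, 0 and 5 reads against 67, 55 and 88, a 20.7-fold rise (adjusted p = 1.81e-05). In oeATOH8 they stood at 8.10 and 10.0 scaled reads per kb, against 29.6 for FN1. Of 11 marker genes of fibroblasts and stroma these 2 were the only ones in the table, and their summed reads were 5, 0 and 10 in oeCTRL and 159, 127 and 202 in oeATOH8. Of 14 red cell markers 3 were in the table (HBB, HBA1 and HBA2), with 13, 7 and 4 summed reads in oeCTRL and 56662, 3141 and 13206 in oeATOH8. The globin sum thus varied 18.0-fold among the oeATOH8 libraries and the collagen sum 1.59-fold. Globins were highest in replicate 1 and the collagens in replicate 3, and both sums were lowest in replicate 2. No marker of endothelium, leukocytes or platelets was in the table. The part of RNA from other cells in the rise of the 2 collagens was not tested.

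**Figure D4:**
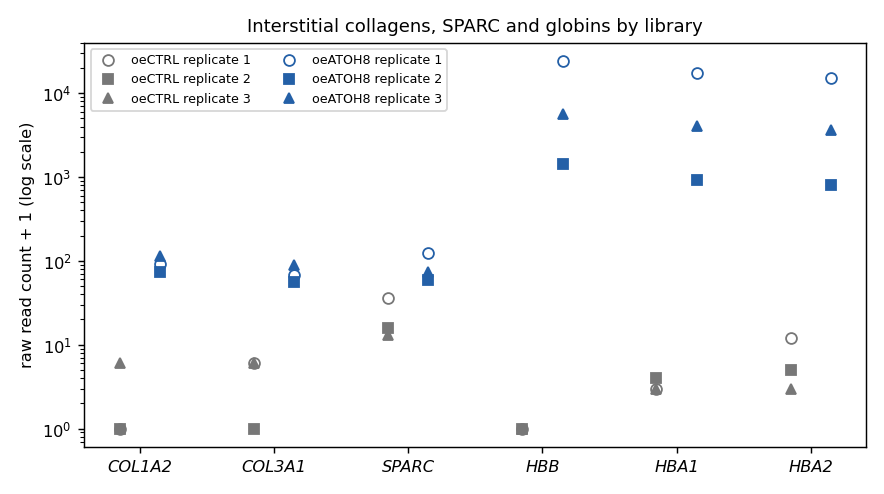
Raw read counts plus 1 on a log axis (y) for COL1A2, COL3A1, the matrix glycoprotein gene SPARC and the 3 globin genes (x), by library, oeCTRL in grey and oeATOH8 in blue. The collagens lie within a narrow range over the oeATOH8 libraries, while the globins spread widely with replicate 1 on top.

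The other 5 collagens in the table fell. COL4A5 (chromosome X, 108439844 to 108697545), a basement membrane type IV chain, had 97, 67 and 99 reads in oeCTRL, against 0, 12 and 6 in oeATOH8. It fell 14.6-fold (edgeR adjusted p = 8.16e-05), or 9.75-fold without oeATOH8 replicate 1 and 30.4-fold without oeATOH8 replicate 2. COL14A1, which coats collagen fibrils, had 103, 112 and 146 reads against 4, 21 and 29 and fell 6.83-fold (adjusted p = 0.000208). COL8A2 had 224, 197 and 122 against 37, 42 and 26 and fell 5.24-fold (adjusted p = 1.95e-05). COL7A1 had 284, 307 and 243 against 107, 79 and 145, a 2.59-fold fall (adjusted p = 0.000122). COL27A1 had 540, 506 and 457 against 229, 195 and 241, a 2.31-fold fall (adjusted p = 4.51e-06). In each of these 5 every oeATOH8 library was under every oeCTRL library, while groups did not overlap for 99.6% of all listed genes.

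FN1 had 1065, 1100 and 1050 reads in oeCTRL, against 510, 519 and 542 in oeATOH8. It fell 2.09-fold with little spread in either group, at -1.06 (SE 0.08) on the log2 scale in edgeR (adjusted p = 2.00e-07). The 3 MMPs in the table all fell, as did 58.6% of all listed genes. MMP15, a membrane-type MMP, had 2275, 1916 and 1891 reads against 876, 769 and 1003 and fell 2.35-fold (adjusted p = 1.80e-07). MMP24 had 1055, 914 and 1050 against 434, 415 and 513 and fell 2.27-fold (adjusted p = 4.25e-07). MMP11, a secreted MMP also called stromelysin 3, had 140, 114 and 87 against 72, 44 and 58 and fell 2.00-fold (adjusted p = 0.00453). CHCHD10, which shares 4.21% of MMP11's exonic bases on the other strand, was 2.91-fold higher in the same libraries.

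The serpins SERPING1 and SERPINB5 fell as well. SERPING1 had 350, 361 and 340 reads in oeCTRL, against 142, 152 and 161 in oeATOH8, a 2.36-fold fall (edgeR adjusted p = 1.28e-05). SERPINB5, the epithelial serpin maspin, had 161, 164 and 208 against 64, 65 and 96, a 2.43-fold fall (adjusted p = 0.000397).

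The 2 comparisons share no samples, and 7 matrix genes were in both tables. COL27A1, COL8A2, FN1 and SERPING1 were lower in both, and COL7A1 and MMP24 were among the 3 that were higher with RSL3 and lower with ATOH8. The same direction was thus seen for 4 of 7 (57.1%), against 201 of the 251 listed genes found in both tables (80.1%). MMP24 passed in both comparisons, but its RSL3 call ended with TMM or total scaling. COL7A1 missed the limma test for RSL3 (adjusted p = 0.110), and so did SERPING1 (0.0679), which counts among the 4. The 2 shares thus rest in part on directions that no test backed. FN1 had a log2 fold change of -1.69 (SE 0.53) with RSL3 and -1.06 (SE 0.08) with ATOH8. COL8A2 stood at -1.01 (SE 0.25) and -2.39 (SE 0.31). COL27A1 stood at -1.02 (SE 0.24) and -1.21 (SE 0.13). The tables were scaled separately and sizes were not tested between them.

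**Figure D5:**
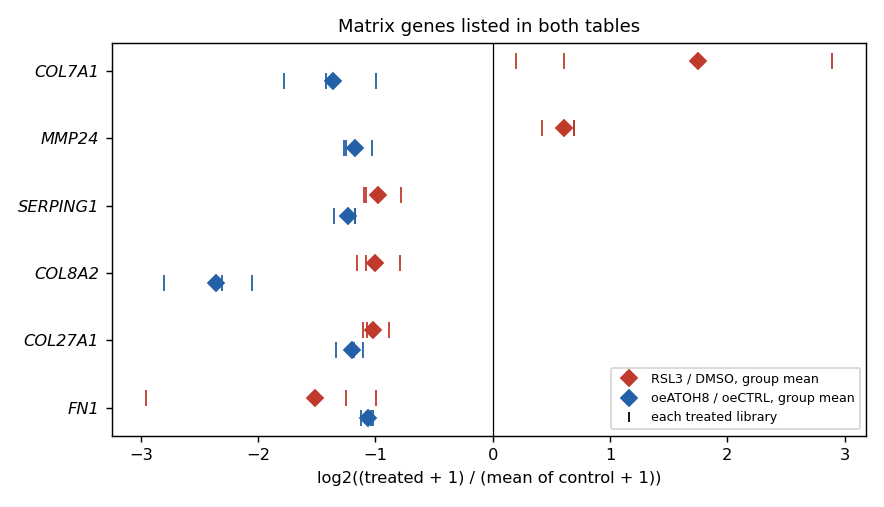
Matrix genes found in both tables (6 plotted), with the log2 ratio of treated over the control mean (1 added to each) on the x axis. Diamonds are group means and ticks the 3 treated libraries, red for RSL3 over DMSO and blue for oeATOH8 over oeCTRL, and the blue marks lie left of 0 for all 6 while 2 of the red sets lie right of it.

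Genes that build, cut or bind the matrix together with these were followed in 3 lists. Of 73 genes for crosslinking enzymes and other matrix glycoproteins, 14 were in the RSL3 table. Limma passed 81.7% of all genes tested there (43.4% higher, 38.4% lower). Of the 14, 6 were higher (3 passed) and 8 lower (8 passed). The higher ones that passed limma were THBS3 (1.79-fold), TGFBI (1.64-fold) and NTN1 (1.44-fold). The lower ones were FBLN2 (10.1-fold, with few reads), LOX, the lysyl oxidase that crosslinks collagen (3.95-fold), FBLN5 (3.28-fold), NID2 (2.57-fold), LTBP1 (2.49-fold), FRAS1 (2.34-fold), SPOCK2 (2.24-fold) and LTBP2 (1.47-fold). The list's median log2 ratio was -0.86, against 0.50 over all listed genes. With ATOH8, 11 of the 73 were listed, with 4 higher and 7 lower and a median of -1.12. This is near the whole ATOH8 table, where 41.4% were higher and 58.6% lower, with a median of -1.10. SPARC rose 4.04-fold, CCN2 3.28-fold, BGN 3.10-fold and CCN1 2.78-fold. SPARC (35, 15 and 12 reads against 123, 58 and 73) and BGN (43, 9 and 25 against 72, 53 and 117) had few reads. The globin and stromal collagen sums given above were high in all oeATOH8 libraries, so any gene higher in oeATOH8 shares that pattern. Within oeATOH8, SPARC was highest in replicate 1, where the globins were, and BGN in replicate 3, where the collagens were. SPARC, BGN, the globins and the stromal collagens were all lowest in replicate 2. The part of RNA from other cells in the rise of SPARC and BGN was not tested. CCN1 and CCN2 are secreted integrin ligands and known targets of YAP, and CCN1 had 13504, 12776 and 12877 reads in oeCTRL, against 37626, 36984 and 36579 in oeATOH8. TNXB fell 5.76-fold, FREM2 3.02-fold, MATN3 2.60-fold, FBLN5 2.51-fold, SPOCK2 2.51-fold, NID2 2.17-fold and FRAS1 2.01-fold in the edgeR test.

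Of 29 genes of pericellular proteolysis, 5 were in the RSL3 table, with 1 higher (CTSD, 1.82-fold, limma adjusted p = 0.0743) and 4 lower that all passed. Among all genes tested there, 81.7% passed, 43.4% as higher and 38.4% as lower. ADAM8 was 2.89-fold lower, the epithelial protease matriptase (ST14) 2.60-fold, its inhibitor SPINT1 2.16-fold and ADAM19 1.55-fold. With ATOH8, 4 were listed and all passed, as did 100% of the listed genes. PLAU, the urokinase that activates plasminogen, rose 2.10-fold, while the collagen-cutting cathepsin CTSK fell 3.23-fold, SPINT1 2.88-fold and ST14 2.07-fold. Of 40 genes for other matrix receptors and focal adhesions, 5 were in the RSL3 table and 3 in the ATOH8 table. TNS4, a tensin that binds integrin tails, was 4.67-fold lower with RSL3 and 4.72-fold lower with ATOH8. LIMS2 (1.79-fold) and PTK2B (1.40-fold) were higher and NEO1 (1.48-fold) lower with RSL3, and ACTN1 at 1.29-fold lower missed the test. The focal adhesion protein ZYX rose 2.23-fold and the laminin-receptor partner CD151 rose 2.17-fold with ATOH8. All 8 partner genes found in both tables had the same direction in both, as did 80.1% of all listed genes found in both, and of these only BGN was higher, without passing for RSL3 (adjusted p = 0.0661). Of 10 epithelial markers, CDH1 was in both tables, EPCAM in the RSL3 table and KRT8 in the ATOH8 table, and all were lower. KRT8 fell 2.58-fold with ATOH8, to no fewer than 5873 reads in a library, and EPCAM was 3.01-fold lower with RSL3. CDH1 was 4.34-fold lower with RSL3 and 7.55-fold lower with ATOH8.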

How the data were processed

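RNA of the 12 libraries was sequenced, and the submitters' processing notes list the tools fastp, HISAT2, StringTie and DESeq2 and the build GRCh38, giving neither versions nor roles. Whether counting used strand is not given in the sources used here. The deposited RSL3 values (a signal per gene) are reads over a size factor for each library: all were whole multiples of one step (100% within 0.001), so reads were recovered. The deposited ATOH8 values are raw counts, and its NC and OE columns were taken for oeCTRL and oeATOH8. RSL3 rows were named by position (overlap at least 0.5 with RefSeq, else GENCODE), ATOH8 rows by Ensembl identifier.

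RSL3 was tested with limma (3.58.1, trended variance) on log2(value + 1), since the table holds no counts as deposited; edgeR's filter (count 10, total 15) removed 90 of 1810 genes. Limma fold changes are on that scale and understate low genes. ATOH8 was tested with edgeR (4.0.16, quasi-likelihood; SE as the log2 fold change over the square root of F). Libraries were scaled by the median ratio within a group, and groups so that the fold range missing from the table (log2 -0.97 to 1.03) was centred on 0. Fits and Benjamini-Hochberg adjustment covered all listed genes, two-sided, with R 4.3.3 and DESeq2 (1.42.0) for an alternative; counting every annotated gene gave 59792 and 75204 tests. The fits were tested on simulated data. Deviations of same-numbered samples correlated at 0.67, 0.60 and 0.60 in the RSL3 table, above the 0.1 set for taking numbers as pairs. Replicates 2 and 3 correlated as highly crosswise (0.58 and 0.62), so the pairing sets apart replicate 1 only. In the ATOH8 table the values were 0.02, 0.03 and 0.07. Exonic length is the union of GENCODE exons.

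Every matrix gene is named except 2, which are not reported here singly or plotted but are in the counts, medians and correlations. Values by library were planned for genes in both tables or past a fold of 2.5 at a mean of at least 50, and the others were added with their values known. Partner genes that passed were named, 6 a direction by adjusted p, and those beyond 6 or not passing were added likewise. Members, lists and rules were chosen with earlier results of these data known.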

Additional observations from a re-analysis of the deposited data

How the results depend on the processing

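None of the 23 matrix genes tested for RSL3 changed direction under its 19 alternatives, and none of the 17 for ATOH8 under its 14; the genes filtered out for RSL3 were not followed. The 18 RSL3 calls by limma (of 23) fell to 0 when all annotated genes counted as tests, to 0 with that and the replicate block together, and to 0 with replicates 2 and 3 averaged as 1 sample (the last 2, and the fits with edgeR and the block and with replicates 2 and 3 only, were chosen after seeing the data). They ranged from 0 (without DMSO replicate 2 or 3) to 22 of 25 (without DMSO replicate 1) with 1 library left out, with 16 of 24, 5 of 25 and 7 of 24 without RSL3 replicate 1, 2 and 3. They stood at 23 with the replicate block, 19 with edgeR and 23 with DESeq2 on recovered reads, 23 with edgeR and the block, 23 of 24 with replicates 2 and 3 only, 20 of 25 without the filter, 12 with total scaling and 16 with TMM. Both pseudocounts (0.5 and 5) gave 18. Of these RSL3 alternatives, only the replicate block and the count of all annotated genes have a share of all genes tested given above. The 17 ATOH8 calls by edgeR fell to 10 with DESeq2 size factors over listed genes, were 15 with every annotated gene counted, and ranged from 16 to 17 with 1 library left out. They were 17 with the replicate block, where the numbers do not pair the samples, and 17 under the other alternatives. Depth limits ITGA1, ADAMTS14, ADAMTSL3, COL5A2 and COL7A1 for RSL3, among others, since a group held few reads. It likewise limits COL1A2, COL3A1, COL4A5 and COL14A1 for ATOH8.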
